A study of Mus musculus with 24 samples.

Results

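The late-annotated miRNAs are the 67 rows of the small RNA table named mir- with a number of 1000 or more that had at least 1 count, out of 510 rows in all and 364 rows with counts. They were chosen by name only, and miR-1188, miR-1193 and miR-1197 of the Dlk1-Dio3 domain were left out, as were 35 such rows at 0 in every library. Small RNA of mammary tissue was sequenced in 24 libraries, 1 per mouse. Tumor libraries came from female mice heterozygous for the MMTV-PyMT transgene in the FVB strain, taken at the labelled stages of hyperplasia (week 6), adenoma or mammary intraepithelial neoplasia (week 8), early carcinoma (week 10) and late carcinoma (week 12). Normal libraries came from FVB control mice without the transgene at the same 4 ages, with 3 mice in each of the 8 groups. The transgene places the polyoma virus middle T antigen under the mouse mammary tumor virus promoter, which is active in the mammary epithelium, so that tissue of the early stages still holds normal gland. Neither genotype received a treatment in the labels.

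miRNAs are small RNAs cut from hairpin precursors that guide Argonaute proteins to messenger RNAs, mainly by pairing through the seed at bases 2 to 8. Names are numbered in the order of registration in miRBase, so that high numbers mark miRNAs found late, mostly by sequencing and mostly at low levels. Some hairpins overlap other genes. Among these are mirtrons, in which the splicing of a short intron frees the hairpin in place of the nuclease Drosha.

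Of the 17 members with enough counts to be tested, a mature sequence from RefSeq (GRCm38.p6) was used for 7. The lookup left out some hairpins, among them miR-1893, miR-1901 and the tested miR-1948. A missing sequence is thus not a result from RefSeq. The sequences of the 7 are printed because the results below turn on them, with the seed in capitals.
miR-1839-5p: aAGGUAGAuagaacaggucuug
miR-1943-5p: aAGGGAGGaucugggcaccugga
miR-1943-3p: cAGGUGCCagcuccucccuuc
miR-1947-5p: aGGACGAGcuagcugagugcug
miR-1947-3p: gCACUGAGcuagcucucccucc
miR-1964-5p: aGCUGGAGcacaaaagccggug
miR-1964-3p: cCGACUUCugggcuccggcuuu
miR-1981-5p: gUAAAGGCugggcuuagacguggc
miR-1981-3p: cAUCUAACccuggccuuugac
miR-1982-5p: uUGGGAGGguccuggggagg
miR-1982-3p: uCUCACCCuauguucucccacag
miR-1983: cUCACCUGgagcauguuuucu
No seed was shared between 2 members among the 60 different mature sequences of 44 members that were used, which run from 17 to 25 bases. Seeds of the other members were not compared. Sharing with rows that are no members was seen for 5 members. miR-1943-5p has the seed of miR-149-3p, miR-1947-3p that of miR-674-5p, and miR-1983 that of miR-412-3p. miR-1961, with 7 counts, has the seed of the let-7 family, a group of 9 mature sequences in the table that includes miR-98-5p. An exact match to 1 place in the genome (NCBIM37) was found for 51 of the 60 sequences. miR-3470b and miR-3471 matched 42725 and 5031 places, and each had 1 count.

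Counts on the members were few and uneven. Together they held 85666 counts, 0.157% of the 54524285 counts of the series. The normal libraries had 1626022 to 3931375 counts and the tumor libraries 1032241 to 2213972, so that 3 counts correspond to 0.763 to 1.84 CPM and to 1.36 to 2.91 CPM before normalization. Such floors cover counting error only, because amplified reads do not count separate molecules. Members made up 0.110% to 0.200% of a normal library (median 0.126%) and 0.111% to 0.270% of a tumor library (median 0.211%), and between 31 and 45 of them were detected in a normal library and between 29 and 43 in a tumor library. The 3 most counted members, miR-2133, miR-2135 and miR-2134, had 29874, 20780 and 15030 counts and held 76.7% of the member counts. The filter on low counts kept 17 members, which held 98.5% of the counts. Another 50 members did not pass, and 8 of those had a single count.

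**Figure D1:**
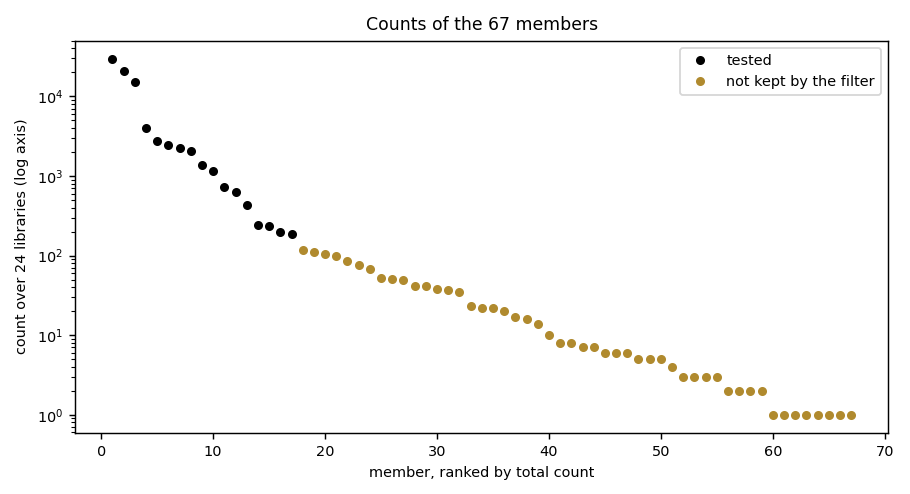
Count of each of the 67 members over the 24 libraries (log axis), ranked from the highest to the lowest, with the 17 tested members in black and the 50 not kept by the filter in brown. The 3 members at the left, miR-2133, miR-2135 and miR-2134, hold 76.7% of all member counts.

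Tumor was compared with normal at each age to ask which of these miRNAs differ at each stage of the disease. The test was the quasi-likelihood test of edgeR, fitted on all 237 rows kept by the filter, with Benjamini-Hochberg adjustment over those rows, and a member was called at an adjusted p under 0.05. At week 6, 8 members were higher in tumor and 1 lower, which is 9 of 17 tested where 58.6% of all tested rows were called (29.1% higher and 29.5% lower). At week 8, 5 were higher and 0 lower, with 6 of 17 at an unadjusted p under 0.05, beside 35.4% of all tested rows (21.9% higher and 13.5% lower). Week 10 gave 5 higher and 1 lower, beside 60.3% of all tested rows (32.9% higher and 27.4% lower). By week 12, 1 was higher and 2 were lower, beside 50.6% (29.1% higher and 21.5% lower). Counted over the weeks, 10 of 17 members were called at 1 week or more, against 79.7% of all tested rows, and none was called in both directions. The only member called at all 4 weeks was miR-1983, where 26.2% of all tested rows were.

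In order of age, the median log2 fold change of the 17 members was 0.87, 0.53, 0.39 and -0.16, and that of all 237 rows -0.12, -0.09, -0.15 and -0.19. The members' median at week 12 was 0.12 both with library sizes only and with the replicate number as a block, and from -0.53 to 0.17 over the 6 fits without 1 replicate, above 0 in 3 of them, so that its sign was not settled. In bulk tissue a miRNA that is lower because fewer cells of a type are present cannot be told apart from one with less RNA per cell. The summed level of the 10 epithelial marker miRNAs, all of which were detected, was 15326 to 30650 CPM in normal and 57009 to 98235 CPM in tumor libraries. For the 5 stromal markers, also all detected, it was 158608 to 276050 CPM in normal and 70027 to 136934 CPM in tumor libraries. The part of these shifts in the results below was not tested.

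**Figure D2:**
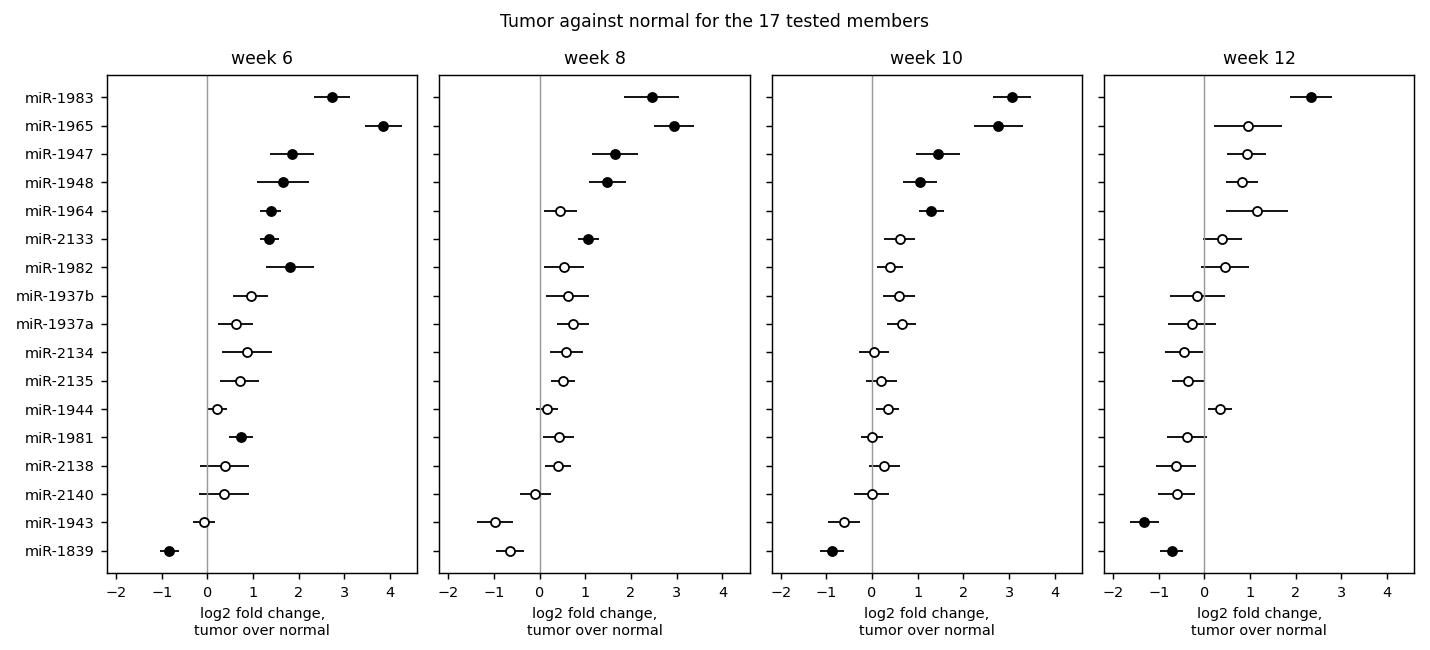
Log2 fold change of tumor over normal for the 17 tested members at weeks 6, 8, 10 and 12 (3 tumor and 3 normal libraries each), ordered by the mean of the 4 weeks, with bars of 1 standard error from the edgeR fit. Filled points are past an adjusted p of 0.05. miR-1983 is filled in all 4 panels, and more points lie left of 0 at week 12 (9 of 17) than at week 6 (2 of 17).

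At week 6 the values of 11 of 17 members did not overlap between tumor and normal glands (10 with tumor above), beside 68.8% of all tested rows. At the later ages in turn, 9, 7 and 5 members did not overlap, with tumor above for 8, 6 and 3 of them, beside 51.9%, 67.9% and 62% of all tested rows. miR-1983, miR-1947 and miR-1948 did not overlap at any of the 4 ages. The share of all tested rows without overlap at all 4 ages was not computed, so that this cannot be set against the other rows.

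miR-1983 was over-expressed in tumor at every stage. In the GENCODE annotation of mm9 its hairpin lies on chromosome 13 from 21988787 to 21988918 on the minus strand and in no gene, while RefSeq places it over the tRNA gene n-TItat14, an isoleucine tRNA. Along the mature sequence, the first 13 bases are the 3′ end of that tRNA gene and the last 8 lie beyond it. It is printed again with the tRNA bases in capitals.
miR-1983: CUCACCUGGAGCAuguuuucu
The deposited counts do not tell reads of a miRNA from reads of the end of a tRNA precursor. At week 6 the tumor libraries had 152, 95.3 and 141 CPM and the normal libraries 9.92, 24.4 and 23.3 CPM. At week 8 tumor levels were 92.9, 96.4 and 126 CPM against 5.32, 16.3 and 36.7 CPM. Every tumor library was above every normal one at both ages. At week 10 tumors had 128, 74.4 and 64.2 CPM and normal glands 6.93, 14.96 and 9.54 CPM. Levels at week 12 were 65.9, 47.3 and 80.8 CPM in tumor and 9.395, 7.68 and 20.5 CPM in normal libraries. The groups stayed apart here too, although the tumors of week 12 included the lowest tumor value. The log2 fold change was 2.74 (standard error 0.39, adjusted p = 0.00182) at week 6 and 2.46 (standard error 0.60, adjusted p = 0.0183) at week 8. It was 3.06 (standard error 0.42, adjusted p = 0.0011) at week 10 and 2.34 (standard error 0.46, adjusted p = 0.00509) at week 12. Without normal replicate 2 the week 8 value was 2.33 with an adjusted p of 0.0529, and all other fits without 1 library kept the call. Within sequencing lane 1 the tumor mean was 3.14 log2 units above the normal mean, and within lane 2 it was 2.26.

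miR-1965 had the largest weekly fold change among the tested members. Its hairpin lies on chromosome 7 from 87297776 to 87297901 (mm9, minus strand), in no annotated gene. Tumor libraries of week 6 had 13.96, 10.5 and 12.2 CPM and normal libraries 1.42, 0.349 and 0.778 CPM. Week 8 gave 8.503, 7.05 and 7.904 CPM in tumor and 0.886, 1.32 and 0.574 CPM in normal libraries. These rest on 6 to 28 counts per tumor library and on 1 to 3 per normal library. At week 10 the tumor values were 6.68, 8.16 and 2.82 CPM and the normal values 0.513, 1.19 and 0.681 CPM. At week 12 they were 3.14, 2.56 and 7.55 CPM and 0.972, 4.85 and 0.821 CPM. Groups were apart at weeks 6, 8 and 10 and overlapped at week 12, where normal replicate 2 was above 2 of the tumors. The log2 fold changes were 3.86 (standard error 0.42, adjusted p = 6.28e-04), 2.95 (standard error 0.44, adjusted p = 0.00327) and 2.77 (standard error 0.53, adjusted p = 0.00441) at weeks 6, 8 and 10. The value at week 12 was 0.96 (standard error 0.75, adjusted p = 0.323), and without normal replicate 2 it was 2.12 with an adjusted p of 0.0397. Within lanes the tumor mean of log2(CPM + 1) exceeded the normal mean by 2.21 in lane 1 and by 1.69 in lane 2.

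**Figure D3:**
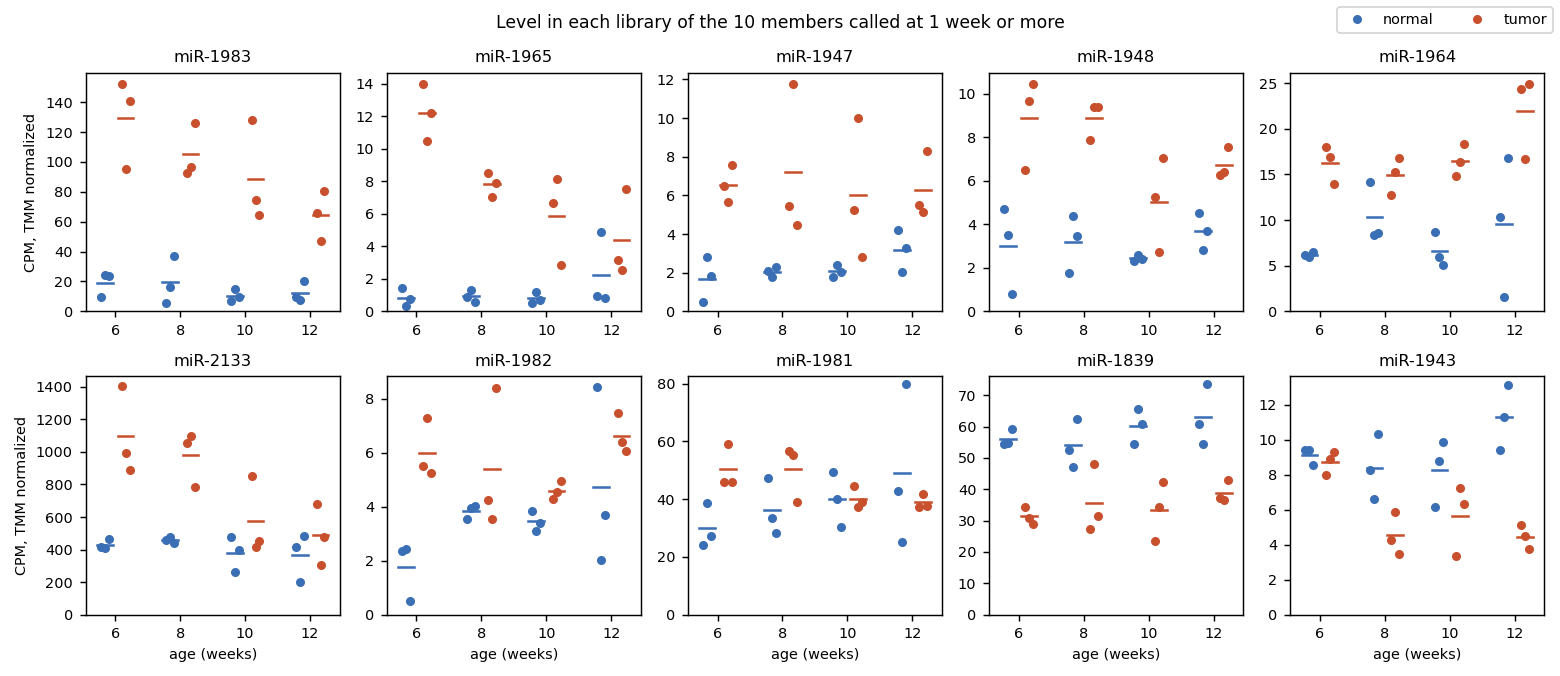
TMM normalized CPM in every library for the 10 members called at 1 week or more, by age in weeks, with normal libraries in blue, tumor libraries in red and the group mean as a line (n = 3). Panels have their own scale starting at 0. miR-1983, miR-1947 and miR-1948 lie higher in all tumors than in all normal glands at each age, and miR-1839 lies lower at weeks 6, 10 and 12.

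Of the members whose hairpin sits in an intron of a protein-coding gene on the same strand, miR-1947, miR-1948 and miR-1964 were higher in tumor. miR-1947 (chromosome 16, 33105447 to 33105531, plus strand, mm9) is in an intron of Lmln, which encodes a metallopeptidase. It had 6.48, 5.65 and 7.55 CPM in tumors of week 6 and 0.472, 2.79 and 1.82 CPM in normal glands. Tumors had 5.47, 11.8 and 4.45 CPM at week 8 and normal glands 2.07, 1.76 and 2.296 CPM. All 3 tumors lay above all 3 normal glands at both ages. Tumor levels at week 10 were 5.25, 9.98 and 2.82 CPM against 1.796, 2.37 and 2.04 CPM, and at week 12 5.49, 5.12 and 8.303 CPM against 4.21, 2.02 and 3.29 CPM. The gap to the nearest normal library was smaller at these later ages. Log2 fold changes by age were 1.86 (standard error 0.48, adjusted p = 0.0151), 1.65 (standard error 0.50, adjusted p = 0.038), 1.44 (standard error 0.47, adjusted p = 0.0333) and 0.93 (standard error 0.42, adjusted p = 0.103). The calls of weeks 8 and 10 were each kept in 1 of 6 fits without 1 library, the one without tumor replicate 3, where the 6 values ran from 1.26 to 1.998 and from 0.98 to 1.77. The week 8 call was also lost with no filter, with library sizes only and in the Wald test of DESeq2 (adjusted p from 0.0549 to 0.089), and the week 10 call with the Wald test (adjusted p = 0.0546).

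miR-1948 is in an intron of Ttc39c (chromosome 18, 12873320 to 12873404, plus strand, mm9), which encodes a tetratricopeptide repeat protein. Tumors of week 6 had 6.48, 9.69 and 10.5 CPM and normal glands 4.72, 3.49 and 0.778 CPM. At week 8 the values were 7.895, 9.405 and 9.39 CPM in tumor and 1.77, 4.395 and 3.44 CPM in normal libraries. Tumors were above normal glands throughout. Week 10 had 5.25, 2.72 and 7.06 CPM in tumor and 2.31, 2.61 and 2.38 CPM in normal libraries, and week 12 had 6.28, 6.399 and 7.55 CPM and 4.54, 2.83 and 3.697 CPM. At week 10 tumor replicate 2, with 3 counts, lay just above the highest normal gland. The log2 fold change was 1.65 (standard error 0.57, adjusted p = 0.0394), 1.48 (standard error 0.41, adjusted p = 0.0284), 1.05 (standard error 0.37, adjusted p = 0.0446) and 0.83 (standard error 0.35, adjusted p = 0.0822) at the 4 ages in turn. These calls were lost in most fits without 1 library, while every fold change stayed positive. Week 6 kept its call in 2 of 6 fits without 1 library (normal replicate 1 or 3), week 8 in 1 (normal replicate 2) and week 10 in 1 (tumor replicate 2), with values from 0.78 to 2.10 over these fits. With library sizes only the week 6 call was lost (adjusted p = 0.0531). At week 8 it was lost with library sizes only, the Wald test and no filter (adjusted p from 0.0525 to 0.0937), and at week 10 with the Wald test, no filter, the lane as a covariate and the single fit of all libraries (adjusted p from 0.0561 to 0.178).

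miR-1964 is in an intron of Zfp84, a zinc finger gene (chromosome 7, 30558313 to 30558395, plus strand, mm9). Its levels at week 6 were 17.9, 16.95 and 13.9 CPM in tumor and 6.14, 5.93 and 6.48 CPM in normal libraries. At week 10 they were 14.8, 16.3 and 18.3 CPM and 8.72, 5.94 and 5.11 CPM. Both ages showed a clear gap and were called, with log2 fold changes of 1.38 (standard error 0.23, adjusted p = 0.00299) and 1.29 (standard error 0.27, adjusted p = 0.00651), in all 6 fits without 1 library each. At week 8 the tumors had 12.8, 15.3 and 16.8 CPM and the normal glands 14.2, 8.35 and 8.61 CPM, and the change was 0.45 (standard error 0.37, adjusted p = 0.336). At week 12 the values were 24.3, 16.6 and 24.9 CPM and 10.4, 1.62 and 16.8 CPM, and the change was 1.15 (standard error 0.67, adjusted p = 0.192). Here 1 normal library of each age reached the tumor range.

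A pair of tested members, miR-1981 and miR-1982, have hairpins that span a whole intron from the first to the last base, the layout of a mirtron. miR-1981 fills an intron of Mosc2, a mitochondrial amidoxime reductase gene now named Mtarc2 (chromosome 1, 186646286 to 186646367, minus strand, mm9). miR-1982 fills an intron of Oaz1, the antizyme that controls ornithine decarboxylase and so polyamine synthesis (chromosome 10, 80291542 to 80291615, plus strand). For miR-1981, tumors of week 6 had 45.9, 58.9 and 45.9 CPM and normal glands 24.1, 38.7 and 27.2 CPM. The other ages overlapped, with tumor means of 50.3 ± 9.74 CPM (SD, n = 3), 40.1 ± 3.76 CPM (SD, n = 3) and 38.9 ± 2.37 CPM (SD, n = 3) at weeks 8, 10 and 12 and normal means of 36.3 ± 9.88 CPM (SD, n = 3), 39.9 ± 9.48 CPM (SD, n = 3) and 49.2 ± 27.9 CPM (SD, n = 3). Its log2 fold change was 0.74 (standard error 0.27, adjusted p = 0.0458) at week 6, the only call. That call was kept in 1 of 6 fits without 1 library (normal replicate 2) and was lost with library sizes only, with no filter and in the single fit of all libraries (adjusted p from 0.0579 to 0.0959). At the later ages the change was 0.41 (standard error 0.33, adjusted p = 0.336), -0.00 (standard error 0.25, adjusted p = 0.987) and -0.38 (standard error 0.44, adjusted p = 0.503). For miR-1982, tumors of week 6 had 5.48, 7.27 and 5.23 CPM and normal glands 2.36, 2.44 and 0.519 CPM. The log2 fold change was 1.81 (standard error 0.53, adjusted p = 0.0228), and the call was lost without any of the 3 tumor replicates, with values of 1.89, 1.74 and 1.99 and adjusted p from 0.0512 to 0.0662. At week 8 tumors had 4.25, 3.53 and 8.398 CPM and normal glands 3.54, 3.96 and 4.02 CPM, and at week 10 they had 4.29, 4.54 and 4.94 CPM and 3.85, 3.09 and 3.41 CPM. At week 12 the values were 7.45, 6.399 and 6.04 CPM in tumor and 8.42, 2.02 and 3.697 CPM in normal libraries. The groups overlapped at weeks 8 and 12 and were apart at week 10. The changes were 0.53 (standard error 0.44, adjusted p = 0.341), 0.39 (standard error 0.28, adjusted p = 0.374) and 0.46 (standard error 0.52, adjusted p = 0.5) at these ages. In normal glands miR-1982 was called between week 6 and week 12, with a change of 1.51 (standard error 0.48, adjusted p = 0.0299 from edgeR), although 1 gland of week 12 lay within the values of week 6. That call was lost in 5 of 6 fits without 1 replicate (all but the one without normal replicate 2), with values from 1.07 to 2.29 over the 6, and with library sizes only (1.17, adjusted p = 0.106). Another hairpin of this layout, miR-1224 in Vwa5b2, had 7 counts, 1 in each of 7 normal libraries, and 0 in the tumor libraries, which hold 35.9% of all counts.

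miR-1839 and miR-1943 were under-expressed in tumor. miR-1839 overlaps the long noncoding RNA 2900076A07Rik in RefSeq. Tumors of week 6 had 34.4, 30.7 and 29.1 CPM of it and normal glands 54.3, 54.8 and 59.1 CPM. Week 8 gave 27.3, 48.2 and 31.6 CPM in tumor and 52.6, 47.03 and 62.6 CPM in normal libraries. The groups were apart at week 6, and at week 8 tumor replicate 2 reached the normal range. At week 10 the tumor values were 23.4, 34.5 and 42.3 CPM against 54.4, 65.5 and 60.97 CPM, and at week 12 they were 37.3, 36.5 and 43.02 CPM against 60.9, 54.6 and 73.5 CPM. Normal glands were above all tumors at both of these ages. By age, its log2 fold change was -0.84 (standard error 0.20, adjusted p = 0.0122), -0.65 (standard error 0.31, adjusted p = 0.13), -0.87 (standard error 0.26, adjusted p = 0.0246) and -0.71 (standard error 0.25, adjusted p = 0.0469). Without 1 library, the week 6 call was lost without tumor replicate 2 (-0.76, adjusted p = 0.0632) or 3 (-0.68, adjusted p = 0.0572). The week 10 call was lost without tumor replicate 1 (-0.67, adjusted p = 0.0731) or 2 (-0.90, adjusted p = 0.0663). The week 12 call was kept only without normal replicate 2, with values from -0.84 to -0.55 over the 6 fits. It was also lost with no filter, the replicate block, the lane as a covariate, DESeq2 size factors, the Wald test and library sizes only, with adjusted p from 0.0602 to 0.157 and values from -0.75 to -0.53.

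miR-1943 lies in an intron of Tmem184b, a transmembrane protein gene (chromosome 15, 79205658 to 79205730, minus strand, mm9). It had 7.97, 8.88 and 9.298 CPM in tumors of week 6 and 9.45, 9.42 and 8.56 CPM in normal glands. At week 8 the values were 4.25, 5.88 and 3.46 CPM in tumor and 8.27, 6.59 and 10.3 CPM in normal libraries. The levels overlapped at week 6 and did not at week 8. At week 10 they were 3.34, 7.26 and 6.35 CPM and 6.16, 8.78 and 9.88 CPM, and at week 12 5.099, 4.48 and 3.77 CPM and 9.395, 11.3 and 13.1 CPM. At week 12 the highest tumor lay well below the lowest normal gland. The log2 fold changes were -0.07 (standard error 0.24, adjusted p = 0.828), -0.97 (standard error 0.40, adjusted p = 0.0869), -0.62 (standard error 0.36, adjusted p = 0.165) and -1.32 (standard error 0.31, adjusted p = 0.0114). Without tumor replicate 2 the week 12 value was -1.20 with an adjusted p of 0.0561.

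miR-2133, miR-2134, miR-2135, miR-2138 and miR-2140 held 70877 counts, 82.7% of those of the members. None of these 5 rows was found in the GENCODE annotation of mm9 or among the RefSeq sequences used. The same held for 17 members in all, among them miR-1937a, miR-1937b and miR-1944. miR-2133 had 1405, 995 and 892 CPM in tumors of week 6 and 412, 407 and 464 CPM in normal glands. Tumors of week 8 had 1056, 1100.3 and 786 CPM and normal glands 457, 479.9 and 438 CPM. The groups were apart at both ages, with all tumors above. At week 10 tumors had 854, 415 and 452 CPM against 475, 261 and 395 CPM, and at week 12 they had 681, 306 and 476 CPM against 415, 199 and 482 CPM. At these ages only tumor replicate 1 was above all normal glands. Log2 fold changes were 1.35 (standard error 0.21, adjusted p = 0.00226), 1.06 (standard error 0.23, adjusted p = 0.0115), 0.61 (standard error 0.34, adjusted p = 0.155) and 0.39 (standard error 0.43, adjusted p = 0.481). Without tumor replicate 1 the week 8 value was 1.00 with an adjusted p of 0.0605.

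miR-2135 lay at 184 to 560.1 CPM with a median of 344 over the 12 normal glands and at 220.2 to 610.3 CPM with a median of 426 over the 12 tumors. At week 6 its tumor levels were 433, 610.3 and 543 CPM and its normal levels 229, 560.1 and 184 CPM, with a log2 fold change of 0.71 (standard error 0.43, adjusted p = 0.186). In the later weeks the change was 0.50 (standard error 0.26, adjusted p = 0.152), 0.20 (standard error 0.34, adjusted p = 0.604) and -0.35 (standard error 0.37, adjusted p = 0.453). Normal glands had 96.98 to 493 CPM with a median of 227 of miR-2134, and tumors had 155 to 487 CPM with a median of 294. At week 6 it had 226, 487 and 436 CPM in tumor and 145, 389 and 96.98 CPM in normal libraries. Normal replicate 2 stood above the other normal glands of week 6 for both miRNAs. The change of miR-2134 was 0.87 (standard error 0.55, adjusted p = 0.201), 0.58 (standard error 0.36, adjusted p = 0.228), 0.05 (standard error 0.33, adjusted p = 0.905) and -0.45 (standard error 0.42, adjusted p = 0.397) at the 4 ages in turn. Without normal replicate 2, the week 6 changes were 1.68 for miR-2134 (adjusted p = 0.0190), 1.37 for miR-2135 (adjusted p = 0.0104) and 1.20 for miR-2140 (adjusted p = 0.0415). Without tumor replicate 1, the week 12 changes were -0.90 for miR-2135 (adjusted p = 0.0374) and -1.19 for miR-2140 (adjusted p = 0.0400).

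These 5 rows moved with the sequencing lane in tumors of the later ages. Each group had libraries on both lanes, with 2 on lane 1 and 1 on lane 2 at weeks 6 and 8, and the reverse at weeks 10 and 12. In the tumors of weeks 10 and 12 the rows took 0.199% to 0.203% of the counts in the 2 libraries of lane 1 and 0.0836% to 0.109% in the 4 libraries of lane 2. In the tumors of weeks 6 and 8 the shares were 0.151% to 0.232% on lane 1 and 0.171% to 0.205% on lane 2, so that they overlapped. Normal libraries of weeks 10 and 12 had 0.103% to 0.119% on lane 1 and 0.0943% to 0.132% on lane 2. At the late ages there is 1 lane 1 tumor per week, so that lane and animal cannot be told apart. Among tumors, miR-2133 was the only member called between week 6 and week 12, at -1.17 (standard error 0.34, adjusted p = 0.0387 from edgeR). Its tumor level was 995 to 1405 CPM at weeks 6 and 8 and 681 to 854 CPM at weeks 10 and 12 on lane 1, and 786 to 892 CPM and 306 to 476 CPM on lane 2, so that it was lower at the later ages within each lane.

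**Figure D4:**
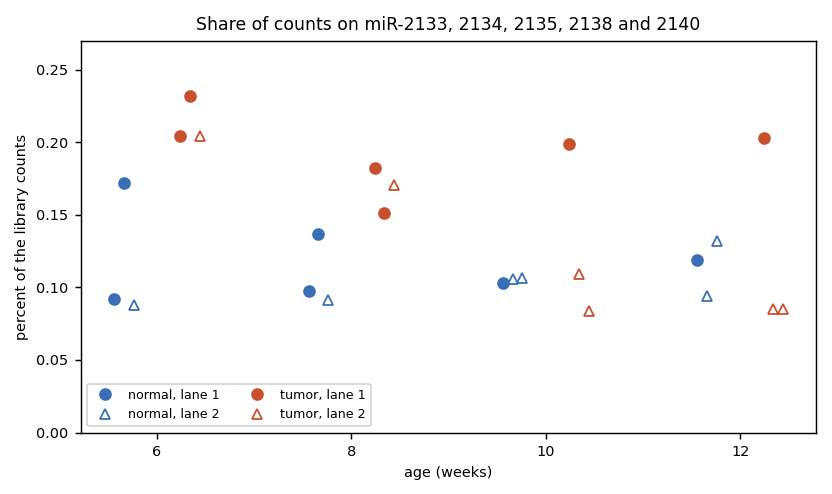
Percent of the counts of each library on miR-2133, miR-2134, miR-2135, miR-2138 and miR-2140 together, by age in weeks, with normal libraries in blue, tumor libraries in red, lane 1 as filled circles and lane 2 as open triangles. At weeks 10 and 12 the lane 1 tumors lie at 0.199% and 0.203% and the lane 2 tumors at 0.0836% to 0.109%.

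The remaining tested members were called at no week. Their weekly log2 fold changes ran from -0.28 to 0.73 for miR-1937a, from -0.16 to 0.95 for miR-1937b, from 0.16 to 0.34 for miR-1944, from -0.63 to 0.40 for miR-2138 and from -0.61 to 0.36 for miR-2140. miR-1937a and miR-1937b are lettered rows of 1 name, and whether they share reads could not be checked without their sequences. miR-1937b came nearest, with 45.9, 35.5 and 41.3 CPM in tumors and 21.7, 31.1 and 10.9 CPM in normal glands of week 6 and an adjusted p of 0.0632. Its week 6 change of 0.95 was past the threshold with the Wald test of DESeq2 (1.01, adjusted p = 0.0242), the replicate block (1.06, adjusted p = 0.0408), the lane as a covariate (1.04, adjusted p = 0.0375) and without normal replicate 2 (1.35, adjusted p = 0.0255). miR-1944 had 38.9, 42.8 and 35.4 CPM in tumors of week 6 and 31.7, 31.1 and 38.4 CPM in normal glands, and 41.3, 44.7 and 44.5 CPM and 36.9, 36.5 and 40.8 CPM at week 8. At week 10 it had 51.5, 39.01 and 36.7 CPM and 42.1, 28.96 and 28.95 CPM, and at week 12 34.1, 46.7 and 56.6 CPM and 34.02, 38.4 and 35.3 CPM. The groups were apart at week 8 alone, by less than 1 CPM. Its changes by age were 0.21 (standard error 0.22, adjusted p = 0.408), 0.16 (standard error 0.25, adjusted p = 0.596), 0.34 (standard error 0.25, adjusted p = 0.263) and 0.34 (standard error 0.26, adjusted p = 0.322).

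The mean of the 4 weekly differences was then tested in a fit of all 24 libraries, which asks for a difference over the course of the disease. It called 10 of 17 members, 8 higher and 2 lower in tumor, beside 85.7% of all tested rows (38.8% higher and 46.8% lower). The mean log2 fold change was 2.66 (standard error 0.27, adjusted p = 3.05e-08) for miR-1983 and 2.64 (standard error 0.30, adjusted p = 1.34e-07) for miR-1965. It was 1.49 (standard error 0.24, adjusted p = 1.15e-05) for miR-1947, 1.26 (standard error 0.22, adjusted p = 4.08e-05) for miR-1948 and 1.10 (standard error 0.22, adjusted p = 1.70e-04) for miR-1964. miR-2133 had 0.87 (standard error 0.17, adjusted p = 1.08e-04) and miR-1982 0.81 (standard error 0.23, adjusted p = 0.00342). miR-1944, called at no single week, had 0.27 (standard error 0.10, adjusted p = 0.0194), the smallest change of those called. miR-1839 fell by 0.75 on the log2 scale (standard error 0.11, adjusted p = 7.17e-06) and miR-1943 fell by 0.73 (standard error 0.14, adjusted p = 1.20e-04). miR-1981 had 0.22 (standard error 0.16, adjusted p = 0.206). By place of the hairpin, 5 of the 6 tested members in an intron on the same strand were called, and so were miR-1965 and miR-1983, the tested members in no gene of the GENCODE annotation (RefSeq has the tRNA gene at miR-1983). By number, 9 of the 12 tested members up to miR-1983 were called and 1 of the 5 from miR-2133 on, with median log2 fold changes of 0.66 and 0.28, beside -0.15 over all 237 rows.

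Whether the difference itself changes between the stages was tested with interaction contrasts. A difference that varies over the 4 weeks was called for 0 of 17 members by edgeR and by DESeq2, with 2 members at an unadjusted p under 0.05 in edgeR, beside 0% of all tested rows called. For week 12 against week 6, 0 of 17 were called, with 3 at an unadjusted p under 0.05, beside 0.422% of all tested rows. The members' values were mostly below 0. The contrast was negative for 15 of 17 members, with a median of -0.95, while the median over all 237 rows was 0.10. The 17 values share the same 12 libraries and are not independent. miR-1965 had the lowest value, -2.91 (standard error 0.83, adjusted p = 0.118), followed by miR-1982 with -1.33 (standard error 0.65, adjusted p = 0.391). Within the normal glands, week 12 differed from week 6 for 1 of 17 members, miR-1982, beside 21.1% of all tested rows (5.49% higher and 15.6% lower). Within tumors it differed for 1 of 17, miR-2133, beside 7.59% (4.22% higher and 3.38% lower). Without normal replicate 2 at all weeks, 6 members were called in the normal glands, miR-1982 among them, beside 23.6% of all tested rows, and in each of the other 5 such fits 0 were, beside 8.44% to 19.4%. The tumor call of miR-2133 was lost in all 6 fits of this kind.

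The 50 members that did not pass the filter had at most 17 counts in any 1 library. Of these, 19 had 20 counts or more over all libraries. Detection in all 12 tumor and all 12 normal libraries was seen for miR-1949 (116 counts), miR-1306 (110) and miR-1191 (104), and miR-1955 (77) was detected in 12 tumor and 9 normal libraries. The mean level of miR-1955, in an intron of Phf21a, was 0.688 ± 0.568 CPM in normal and 2.70 ± 1.23 CPM in tumor libraries (SD, n = 12 each). For miR-1968, in an intron of Grtp1 and with 68 counts, it was 0.691 ± 0.435 CPM and 2.22 ± 1.52 CPM. miR-1941, with 51 counts and on the strand opposite to the keratin gene Krt80, had 1.28 ± 0.922 CPM in normal and 0.335 ± 0.509 CPM in tumor libraries. miR-1940 (42 counts) had 0.946 ± 0.716 CPM and 0.304 ± 0.392 CPM. miR-1306 lies within an exon of Dgcr8, whose protein recognises miRNA hairpins for Drosha, and had 1.55 ± 0.744 CPM in normal and 2.60 ± 1.56 CPM in tumor libraries. The others were miR-2145 (98 counts), miR-2146 (85), miR-1934 (50), miR-2141 (41), miR-1956 (38), miR-3099 (37), miR-1937c (35), miR-3072 (23), miR-1927 (22), miR-1960 (22), miR-2139 (20) and miR-1963 (52). The other 31 members had fewer than 20 counts each.

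miR-1963 was counted in the libraries with most muscle miRNA and in no others. Its hairpin ends 1 base from the 3′ end of an intron of Ryr1, the calcium release channel of skeletal muscle (chromosome 7, 29868655 to 29868713, minus strand, mm9). Its mature sequence is given here with the seed in capitals.
miR-1963: uGGGACGAgaucaugaggccuuc
It had 44 counts in normal and 8 in tumor libraries. All 52 counts fell in 7 libraries. In the 4 normal ones the counts were 11 and 9 at week 6 (replicates 1 and 2), 7 at week 10 (replicate 3) and 17 at week 12 (replicate 1). In the 3 tumor ones they were 5 and 2 at week 6 (replicates 1 and 2) and 1 at week 10 (replicate 3). These are the 7 libraries with the highest summed level of the 6 muscle miRNAs found in the table, which include miR-1, miR-133a and miR-206. That sum was 8996 to 89372 CPM in the 7 libraries and 40.8 to 2466 CPM in the other 17. They include 3 tumor and normal libraries that share week and replicate number. At week 8 no miR-1963 was counted. Without these 7 libraries, week 6 kept only replicate 3 of each tissue. The mean of the 4 weeks then had a median log2 fold change of 0.76 over the 17 tested members, beside -0.17 over all tested rows. With all 24 libraries these medians were 0.44 and -0.15.

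**Figure D5:**
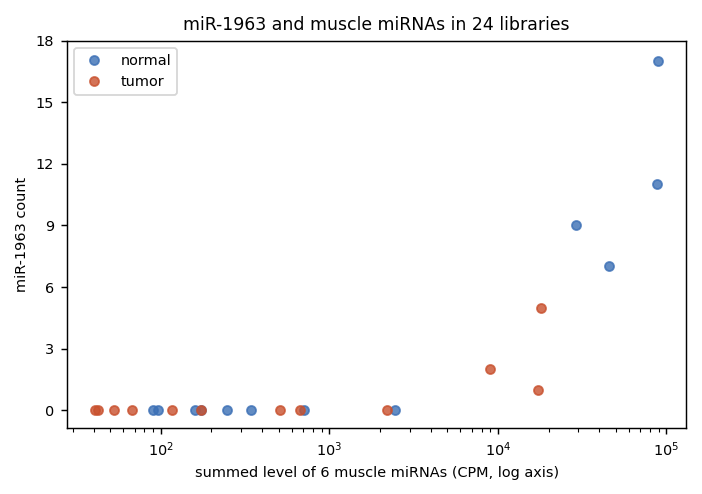
Count of miR-1963 in each of the 24 libraries against the summed CPM of 6 muscle miRNAs (log axis), with normal libraries in blue and tumor libraries in red. The 7 libraries with a count are the 7 farthest to the right, from 8996 to 89372 CPM.

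Where the hairpins lie was known for 41 of the 67 members in the GENCODE annotation of mm9. Of these, 20 lay in an intron on the same strand, 7 overlapped an exon on the same strand, 4 overlapped a gene on the opposite strand only and 10 lay in no gene. The 7 exonic ones had too few counts for a test. miR-1906, with 6 counts, has 2 hairpin copies, one of them in an exon of the imprinted noncoding RNA Meg3 of the Dlk1-Dio3 domain, and miR-3072 overlaps Mirg of the same domain. They stayed among the members by the rule on names.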

How the data were processed

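Small RNA libraries (Illumina TruSeq Small RNA, Version 1) were made from mammary tissue RNA extracted with miRNeasy. The authors removed barcode and adaptor, aligned reads of mature miRNA length with Bowtie, assigned them to miRBase miRNAs by overlap and deposited raw counts, not normalized. The version of Bowtie is not given in the sources used here. The labels name mm9 and the methods of the study name mm10, so that positions are those of the GENCODE annotation of mm9 (NCBIM37) by hairpin name, and RefSeq (GRCm38.p6) served for sequences and overlapping genes. Reads that match several places or overlapping genes were counted by the authors in a way that cannot be checked from the table.

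Groups, weeks, replicate numbers and lanes came from the labels. Each library is 1 mouse. No 2 libraries of a group agreed within sampling noise (lowest chi-square per degree of freedom 84.15). The 17 tested members are those kept by filterByExpr of edgeR 4.0.16 (R 4.3.3) over all libraries and 8 groups. Weekly fits used the 6 libraries of a week, and the other contrasts a fit of all 24, with TMM normalization, the quasi-likelihood test, Benjamini-Hochberg adjustment over 237 rows and a threshold of 0.05. The standard error is the log2 fold change over the square root of F. The p values do not always follow from that ratio. At week 10 the quasi-likelihood test gave an unadjusted p of 0.326 for miR-1982 (0.39, standard error 0.28). For miR-1944 (0.34, standard error 0.25) it gave 0.219. Standard errors of members with few counts may thus be too small. CPM are TMM normalized, and shares of counts and floors are not. Intron ends were matched within 3 bases. On simulated counts of 237 rows with 60 changed, the weekly fit recovered 93% of changes of 2 log2 units or more and 39.2% of changes of 1 unit, and the fit of the mean 99.6% and 90.5%. These rates pool all rows, and none was computed for rows with few counts. In the data 203 of 237 rows were called in the mean, many more than the simulation changed. Plots and permutation tests used Python 3.11.15, numpy 2.4.6, scipy 1.17.1 and matplotlib 3.10.9.

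Alternatives tried were the Wald test of DESeq2 1.42.0, its size factors in place of TMM, library sizes alone, a minimum of 10 counts per library or none, the replicate number as a block, the lane as a covariate, a joint fit of all libraries for the weekly contrasts and each replicate left out in turn. Fits without the 7 libraries with most muscle miRNA and within each lane were chosen after seeing the data. Members, marker lists and rules were chosen with earlier results of these data known. All tested members are named, those called at 1 week or more or in the mean of the weeks are described in full with the 3 most counted, and members not tested are named from 20 counts.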

Additional observations from a re-analysis of the deposited data

How the results depend on the processing

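None of the 23 weekly results past the threshold changed direction under any alternative run, and 10 of the 23 stayed past it in every fit without 1 replicate. Leaving out a replicate gave 5 to 12, 2 to 4, 3 to 5 and 1 to 4 members called in the weekly tests by age, and 8 to 10 in the mean of the weeks, beside 32.9% to 63.3%, 21.1% to 34.2%, 43.5% to 60.8%, 31.2% to 50.6% and 79.7% to 83.5% of all tested rows. It gave 0 to 6 for week 12 against week 6 in normal glands (6 without normal replicate 2, otherwise 0) and 0 in tumors, beside 8.44% to 23.6% and 0% to 12.2%. At week 8, 3 members were called with library sizes only, with the Wald test of DESeq2 and with no filter, beside 24.5%, 42.2% and 20.6%. In the mean of the weeks, 9 members were called with DESeq2 size factors, with library sizes only and with the Wald test. The shares of all tested rows were then 85.7%, 85.7% and 86.5%. Which members lost the call in the mean was not compared between these fits. With at least 10 counts in every library, where 11 members remained, 4 were called at week 6, 2 at week 8, 2 at week 10, 6 in the mean of the weeks and 0 in normal glands, beside 57.1%, 45.1%, 61.5%, 86.3% and 15.4%. With no filter, 18 of 67 members were called in the mean of the weeks, beside 64% of all rows, and 0 in tumors, beside 2.75%. For week 12 against week 6, DESeq2 size factors gave 0 in tumors, beside 10.5% of all tested rows. Library sizes only gave 0 in normal glands and 0 in tumors, beside 19% and 5.49%. Library sizes only also moved the median log2 fold change of all rows, from -0.12 to -0.26 for week 6, from -0.09 to -0.22 for week 8, from -0.19 to -0.00594 for week 12 and from 0.10 to 0.38 for the difference of week 12 against week 6.

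Of the 68 member and week values, 11 took the other sign under an alternative, all of them uncalled. At week 10, miR-2140 was 0.00903 with DESeq2 size factors, 0.0150 with the Wald test and 0.0191 with at least 10 counts. In the same week miR-1981 was 0.00145 with no filter, 0.0214 with at least 10 counts, 0.0149 with the replicate block, 0.00373 with the lane and 0.00917 in the single fit, and miR-2134 was -0.0253 with the block and -0.0182 with the lane. miR-1937b at week 12 was 0.12 with library sizes only and 0.12 with the block. Without 1 replicate, the ranges were -0.12 to 0.0188 for miR-1943 at week 6, -0.30 to 0.15 for miR-2140 at week 8, and at week 10 -0.25 to 0.17 for miR-1981, -0.32 to 0.31 for miR-2134, -0.24 to 0.48 for miR-2135, -0.12 to 0.55 for miR-2138 and -0.45 to 0.28 for miR-2140. At week 12 they were -0.70 to 0.00890 for miR-1937a, -0.63 to 0.16 for miR-1937b, -0.71 to 0.17 for miR-1981 and -0.00237 to 0.78 for miR-2133. The cause was not tested.

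The replicate number as a block gave 10, 5, 7 and 3 members called at weeks 6, 8, 10 and 12 and 11 in the mean of the weeks, within 1.5 times the counts without it. Of all tested rows it called 57%, 55.3%, 66.7%, 49.4% and 84.8%, where week 8 rose from 84 to 131 rows. Under the block miR-1937b at week 6 (1.06, adjusted p = 0.0408), miR-2133 at week 10 (0.56, adjusted p = 0.0308) and miR-1964 at week 12 (1.41, adjusted p = 0.0213) passed the threshold, and miR-1839 at week 12 no longer did (-0.70, adjusted p = 0.0639). The single fit of all libraries called miR-1839 (-0.61, adjusted p = 0.0314) and miR-1943 (-0.94, adjusted p = 0.0182) at week 8 and miR-1964 at week 12 (1.19, adjusted p = 0.0248). Same-numbered tumor and normal libraries correlated in their deviations from the group means with r of 0.031 to 0.816 (mean 0.406), over 0.1 in 10 of 12 pairs. Of the 24 libraries, 17 correlated best with their own number. Over the members alone, r of the same pairs ran from -0.382 to 0.572. No label or method ties the numbers to a shared litter or day. Fits within 1 lane left 1 library per group at some ages. In the mean of the weeks the members' median log2 fold change was 0.36 on lane 1 and 0.58 on lane 2, beside -0.20 and -0.18 over all tested rows. Depth limits the members with few counts most, since 3 counts are 1.36 CPM or more in every tumor library.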

Other observations

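Among the 5 rows with most counts between miR-2133 and miR-2140, 4 rose and fell together from library to library. This was chosen after their values were seen, and all 20 relations (10 pairs in each tissue) were computed on log2 CPM over 12 normal or 12 tumor libraries of 4 ages, with 100000 permutations each (permutation test, two-sided). Values were permuted over all ages and lanes of a tissue, so that shifts with age or lane shared by 2 rows enter these p values. For the 6 pairs of miR-2134, miR-2135, miR-2138 and miR-2140, Pearson's r was 0.877 to 0.963 in normal and 0.805 to 0.970 in tumor libraries, and Spearman's rho was 0.923 to 0.965 and 0.783 to 0.951. The highest adjusted p of r was 4.25e-04 in normal and 0.00368 in tumor libraries, and that of rho was 1.43e-04 and 0.00650. Without the 2 libraries farthest from the median, r was 0.867 to 0.943 in normal and 0.599 to 0.943 in tumor libraries, and within the 2 lanes (6 libraries each) it was 0.863 to 0.978 and 0.717 to 0.997. For the 4 pairs with miR-2133, r was -0.182 to -0.022 in normal libraries, where the lowest adjusted p was 0.690, and 0.348 to 0.725 in tumors, where the lowest was 0.0131. Their rho was -0.147 to -0.042 in normal and 0.196 to 0.587 in tumor libraries. Within lanes r of these pairs ran from -0.411 to -0.025 in normal libraries. In tumors it was -0.654 to -0.512 on lane 1 and 0.483 to 0.765 on lane 2, so that its sign differed between the lanes. Without the 2 farthest libraries r of these pairs ran from -0.173 to -0.046 in normal and from 0.383 to 0.696 in tumor libraries. Whether the 4 rows share reads could not be checked without their sequences.

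When rows with low counts were kept, 9 of the 50 members left out by the filter were called in the mean of the 4 weeks, 7 higher and 2 lower in tumor. In that fit 24.4% of the 127 rows left out by the filter were called, and 64% of all 364 rows. miR-1955 had a log2 fold change of 1.75 (standard error 0.41, adjusted p = 7.19e-04 from edgeR) and miR-1191 1.05 (standard error 0.29, adjusted p = 0.00316). miR-1191 has 5 exact matches in the genome for its mature sequence miR-1191a. miR-1941 fell by 2.04 (standard error 0.61, adjusted p = 0.00619) and miR-1940 fell by 1.97 (standard error 0.71, adjusted p = 0.0200). The others were miR-1949, miR-1968, miR-1927, miR-2139 and miR-1953, with 17 to 116 counts each.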
